A study of Mus musculus with 11 samples.

Results

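The genes that bring amino acid and stress signals to mTORC1 were examined in pancreatic β-cells without Raptor, the subunit through which mTORC1 binds its substrates. They are 10 of the 34728 gene symbols of the deposited table and were taken by name. The members are the 3 sestrin genes *Sesn1*, *Sesn2* and *Sesn3*, the 4 Rag GTPase genes *Rraga*, *Rragb*, *Rragc* and *Rragd*, the Ragulator subunit gene *Lamtor1*, the folliculin gene *Flcn* and *Ddit4*, which encodes REDD1. RNA of GFP+ cells sorted from dispersed islets was measured in 11 libraries of 8-week-old mice of a mixed C57BL/6 and 129SV background. There were 3 libraries from WT mice, 4 from βRapKOGFP mice left without insulin, called diabetic, and 4 from βRapKOGFP mice that had received an insulin pellet 4 weeks before, called euglycemic. All 3 groups carried RIP-Cre, a Cre recombinase under control of the insulin promoter of the rat, and the Cre-activated GFP reporter at *Rosa26*. The mutant groups lacked *Raptor* in the cells in which Cre had acted. The sort took every GFP+ cell, so a cell that had once made insulin was collected whatever it made later. The labels number the libraries of each group but do not say that each came from a separate animal. The p values therefore measure the spread between these libraries, which may in part be technical.

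mTORC1 is a kinase complex at the surface of the lysosome that promotes protein synthesis and cell growth. When amino acids are plentiful, Rag GTPases, which are pairs of RagA or RagB with RagC or RagD, bind Raptor and carry the complex to the lysosome, where Ragulator holds them and folliculin acts on RagC and RagD. Sestrins restrain this route when leucine is low or the cell is under stress, and REDD1 restrains mTORC1 through the TSC complex in hypoxia, in energy stress and under glucocorticoids. In β-cells this kinase supports cell size, insulin production and maturation.

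The values are FPKM, a fragment count divided by transcript length and by the fragments mapped. Levels of different genes are therefore compared per length of transcript. The steps between low values place the depth between about 9510000 and 16660000 fragments per library. *Rptor* (Raptor) was at 0.948, 1.36 and 1.79 FPKM in the WT libraries, at 0.938, 0.831, 0.507 and 0.485 in the diabetic and at 0.423, 0.481, 0.622 and 0.438 in the euglycemic libraries. Every mutant library was below every WT library, the closest pair being diabetic replicate 1 and WT replicate 1. An exact permutation test of both mutant groups against WT, two-sided, gave p = 0.0121, the smallest that it allows for 8 libraries against 3. After rescaling to TPM the diabetic and WT libraries overlapped, and p was 0.0242 in the same exact test. The summed level of 7 β-cell markers was 116538 to 206184 FPKM in all 11 libraries, with 0 of them at 0 throughout. Markers of other cells differed among the libraries. The 6 acinar markers summed to 2.08 to 15.2 FPKM in WT, 14.0 to 1160 in diabetic and 13.5 to 1881 in the euglycemic libraries, highest in euglycemic replicate 4, with 3 mutant libraries below the highest WT library. The 4 α-cell markers summed to 1037 to 2427, 3927 to 14697 and 4745 to 23742 FPKM. The 3 δ- and PP-cell markers summed to 1933 to 3380, 8350 to 23393 and 9648 to 24022 FPKM, and both of these sums were higher in every mutant library than in every WT library. The 4 duct markers summed to 52.1 to 68.6 FPKM in WT, 44.1 to 64.5 in diabetic and 69.2 to 96.6 in the euglycemic libraries, higher in every euglycemic library than in any other. The 5 endothelial markers were at most 1.39 FPKM in sum in WT, 7.02 to 45.3 in diabetic and at most 2.07 in the euglycemic libraries. The 3 mesenchyme markers were at most 0.0521 FPKM in sum in WT, 0.183 to 7.31 in diabetic and at most 0.0194 in the euglycemic libraries. The 5 immune markers overlapped in all groups, at 9.34 to 23.3, 0.793 to 92.4 and 1.22 to 34.6 FPKM. WT replicate 1 and euglycemic replicate 4 stood apart from their groups, with limma library weights of 0.284 and 0.229 where the others had 0.705 to 2.87.

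Between the groups, 0 of the 10 genes passed the criteria in any of the 4 comparisons. The test was limma on log2(FPKM + 1) over 11251 genes, with Benjamini-Hochberg adjustment over all of them, and the criteria were an adjusted p no higher than 0.05 and a difference of 1.5-fold or more. Of all genes tested, 0.969% passed in diabetic against WT, 0.551% in euglycemic against WT, 0.00889% in diabetic against euglycemic and 1.05% in both mutant groups against WT, so that a count of 0 in 10 is close to the background. Before adjustment, p was at most 0.05 in 0, 1, 1 and 2 of the 10 genes, where 11.9%, 13.9%, 20.6% and 11.3% of all genes reached it. The median log2 difference of the 10 genes was −0.059, −0.149, 0.158 and −0.106, beside 0.006, −0.01, 0.009 and −0.004 over all genes tested. In a sorted population, fewer cells of a type and less RNA per cell cannot be told apart in any of these values.

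The precision differed from gene to gene. The 95% interval of the difference lay within 2-fold either way in 6, 5, 6 and 6 of the 10 genes, and within 1.5-fold in 2, 1, 1 and 3. Changes of 1.5-fold were thus within the interval for most of them. The groups compared had no overlapping libraries in 2 of the 10 genes in diabetic against WT (*Sesn1* and *Rragb*), 1 in euglycemic against WT (*Sesn3*), 0 in diabetic against euglycemic and 0 in both mutant groups against WT, where the share over all genes was 13.5%, 10.9%, 14.3% and 3.68%.

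**Figure D1:**
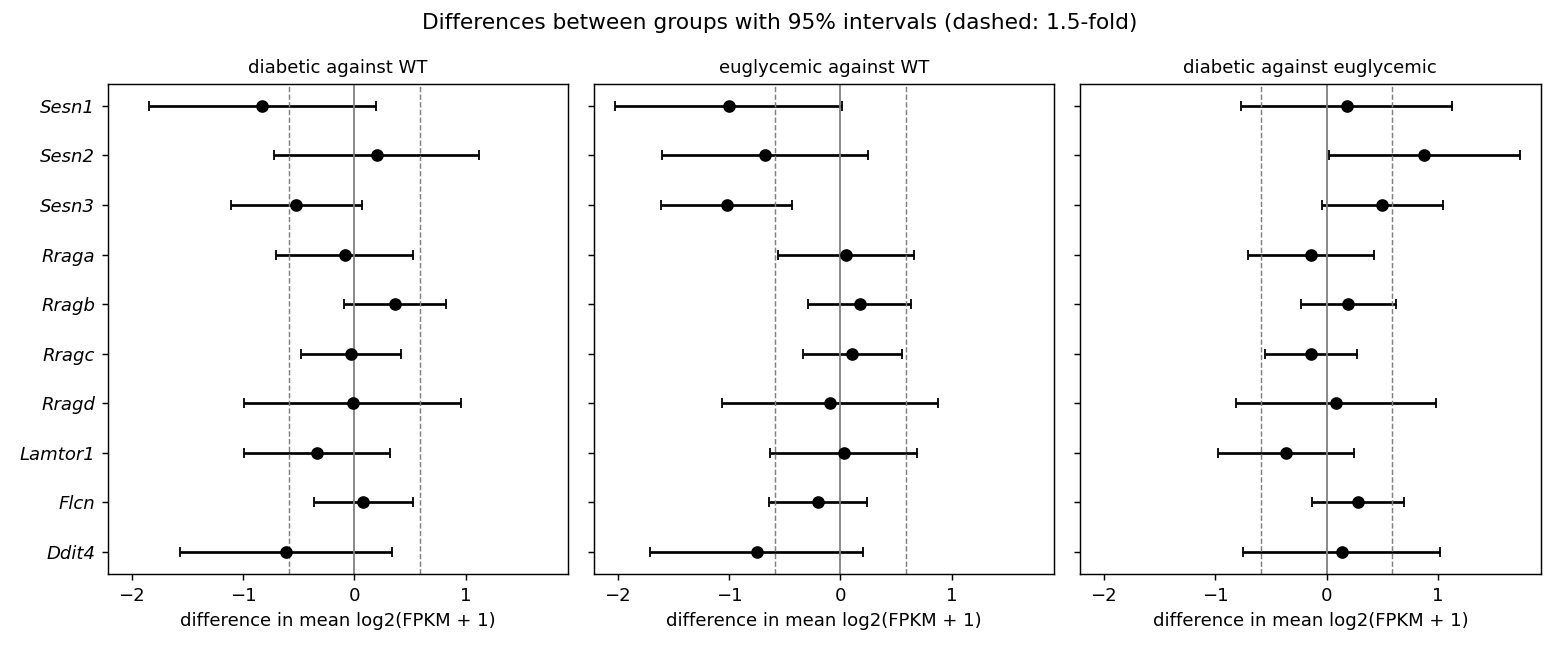
Difference in mean log2(FPKM + 1) between groups (horizontal axis) for each of the 10 genes, with points at limma's estimate, 95% intervals as whiskers and dashed lines at 1.5-fold. The interval of *Sesn3* in euglycemic against WT (−1.61 to −0.43) and that of *Sesn2* in diabetic against euglycemic libraries (0.03 to 1.73) do not reach 0, and all others in the 3 panels do.

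In WT β-cells the levels spanned from *Rraga* at 69.1 ± 9.70 FPKM (SD, n = 3) to *Ddit4* at 2.93 ± 2.34. From the highest mean to the lowest the order was *Rraga*, *Lamtor1* (46.8 ± 16.6), *Rragc* (25.8 ± 6.72), *Sesn1* (24.0 ± 3.71), *Rragb* (19.5 ± 2.38), *Sesn2* (16.3 ± 5.08), *Flcn* (14.8 ± 2.77), *Rragd* (8.75 ± 3.66), *Sesn3* (6.24 ± 1.84) and *Ddit4*. In the WT libraries, only *Lamtor1* from *Rragc* and *Flcn* from *Rragd* were parted without overlap. The other 7 pairs of neighbours overlapped. *Rraga* and *Lamtor1* also led in both mutant groups, and *Sesn3* and *Ddit4* were the lowest in all 3 groups. *Sesn1* was the seventh of the diabetic means (14.0 ± 5.92 FPKM, n = 4). It was the fifth of the euglycemic means (13.6 ± 8.64, n = 4), and it overlapped its neighbours in both. Over the 11 libraries the highest value was 1.56 times the lowest for *Rragc*, 1.72 times for *Flcn* and 1.94 times for *Rragb*, against 6.93 times for *Sesn1*, 7.70 times for *Sesn2* and 12.9 times for *Ddit4*.

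**Figure D2:**
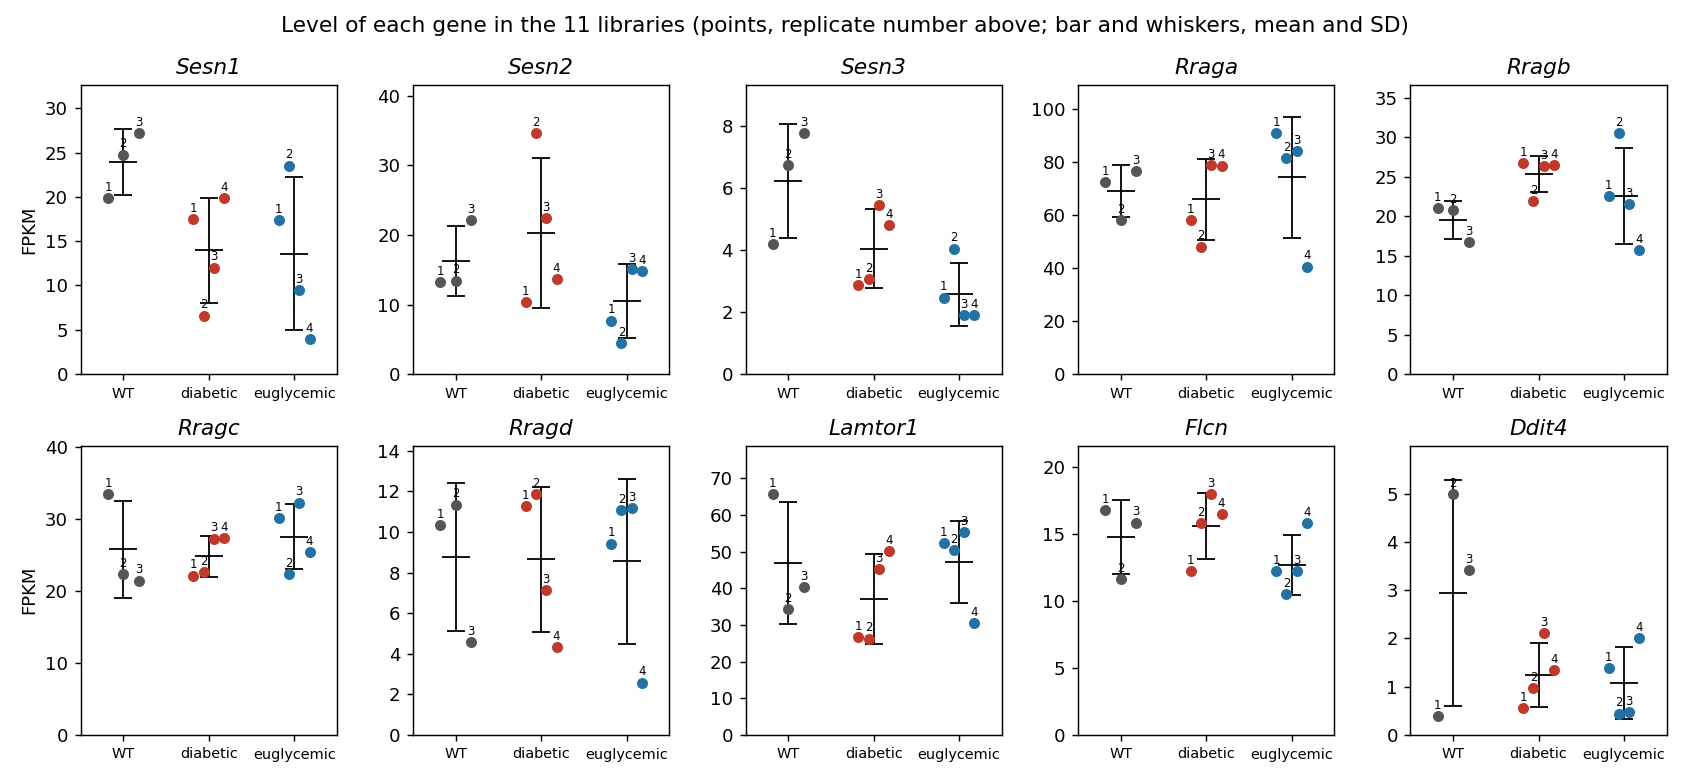
FPKM of each of the 10 genes (vertical axis, from 0) in 3 WT, 4 diabetic and 4 euglycemic libraries, with each point a library under its replicate number and the bars the mean and SD. In *Sesn3* the euglycemic libraries (1.90 to 4.05) lie below the WT libraries (4.21 to 7.78), while the groups overlap in *Rraga*, *Rragc*, *Rragd*, *Lamtor1* and *Flcn*.

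Among the sestrins, *Sesn3* (chromosome 9 from 14275067 to 14333101, plus strand, GRCm38) had the smallest p of all 10 genes, and it did not pass the criteria. It was at 4.21, 6.74 and 7.78 FPKM in WT, at 2.88, 3.07, 5.45 and 4.80 in diabetic and at 2.47, 4.05, 1.91 and 1.90 in the euglycemic libraries. All 4 euglycemic libraries were below all 3 WT libraries. Of the diabetic libraries, 2 lay within the euglycemic range and 2 within the WT range. The mean FPKM was 2.42 times as high in WT as in euglycemic libraries, and the log2 difference on the fitted scale was −1.02 (standard error 0.27, unadjusted p = 0.00239, adjusted p = 0.143 from limma). By p the gene ranked 186 of all genes tested. Against WT, the diabetic difference was −0.52 (adjusted p = 0.487 from limma), and the diabetic and euglycemic groups differed by 0.50 (adjusted p = 0.276). Whether this difference passed rests on 1 library: without WT replicate 1, the WT library with the lowest *Sesn3*, the difference was −1.24 with an adjusted p of 0.0361 and passed the criteria. It passed likewise with library weights (−1.03, adjusted p = 0.00642 from limma) and without both WT replicate 1 and euglycemic replicate 4 (−1.15, adjusted p = 0.0327). Of all genes tested, 4.76%, 20.3% and 10.6% passed in this comparison under these 3 alternatives. Over all 20 alternatives the adjusted p ran from 0.00642 to 0.55.

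*Sesn1* (chromosome 10 from 41809935 to 41908424, plus strand), like the other sestrins a gene of the stress response, was at 19.9, 24.8 and 27.2 FPKM in WT libraries. It was at 17.5, 6.61, 12.02 and 19.9 in diabetic and at 17.4, 23.5, 9.46 and 3.92 in the euglycemic libraries. The mutant libraries reached from the WT range down to a small part of it, and the diabetic libraries parted from WT only by the narrowest margin, 19.88 against 19.90 FPKM. The log2 difference was −0.82 (95% interval −1.84 to 0.19, adjusted p = 0.53 from limma) in diabetic and −1.004 (−2.02 to 0.02, adjusted p = 0.368) in the euglycemic libraries. In both mutant groups together it was −0.91 (unadjusted p = 0.0477, adjusted p = 0.438 from limma), with 7 of the 8 mutant libraries below every WT library. Without euglycemic replicate 4, in which *Sesn1* was lowest and the acinar markers highest, the euglycemic difference was −0.56 (adjusted p = 0.491 from limma). Diabetic replicate 1 had an acinar sum of 1160 FPKM and *Sesn1* at 17.5. Diabetic replicate 2 and euglycemic replicate 4, the lowest in *Sesn1*, had the highest sums of β-cell markers (206184 and 201829 FPKM). The part of these markers in the *Sesn1* difference was not tested.

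*Sesn2* (chromosome 4 from 132492032 to 132510501, minus strand), which encodes the best known leucine sensor of the family and is a target of the stress factor ATF4, showed another pattern. It was at 13.2, 13.4 and 22.1 FPKM in WT, at 10.3, 34.6, 22.4 and 13.7 in diabetic and at 7.70, 4.495, 15.1 and 14.8 in the euglycemic libraries. Both diabetic libraries with the highest level, replicates 2 and 3, were those with the lowest *Sesn1*. Likewise euglycemic replicates 3 and 4 had more *Sesn2* and less *Sesn1* than replicates 1 and 2. Diabetic and euglycemic libraries differed by 0.88 on the log2 scale (95% interval 0.03 to 1.73, unadjusted p = 0.0445, adjusted p = 0.23 from limma), with 2 of 4 diabetic libraries above all euglycemic ones. Against WT the differences were 0.20 (adjusted p = 0.901 from limma) and −0.68 (adjusted p = 0.49), and the first was −0.09 without diabetic replicate 2.

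The mix of sestrin transcripts therefore varied more among mutant libraries than among WT libraries in the values measured. *Sesn1* made up 47.6 to 55.1% of the sestrin FPKM in WT, 14.9 to 56.9% in diabetic and 19.0 to 73.4% in the euglycemic libraries. *Sesn2* made up 29.9 to 38.8%, 33.7 to 78.2% and 14.0 to 71.8%, and *Sesn3* 11.3 to 15.0%, 6.94 to 13.7% and 7.21 to 12.6%. Over the 8 mutant libraries the Pearson correlation of *Sesn1* and *Sesn2* on the log2 scale was −0.65 (Spearman −0.74), and over all 11 it was −0.42, as a description of libraries that also differ in group, depth and marker levels. Other pairs of the 10 genes had larger correlations over the mutant libraries, such as *Sesn1* with *Rragb* (0.89) and *Rraga* with *Lamtor1* (0.89). The sum of the 3 genes was 46.45 ± 9.97 FPKM (SD, n = 3) in WT, 38.3 ± 5.68 (n = 4) in diabetic and 26.7 ± 4.71 (n = 4) in the euglycemic libraries. The euglycemic sums (20.6 to 32.1) lay below the WT sums (37.3 to 57.1), also when the libraries were rescaled by the median of ratios (22.04 to 31.9 against 36.8 to 55.2 FPKM) or to TPM (48.5 to 76.9 against 88.1 to 144.3 TPM). The sum was formed from genes chosen with results known, and no test was made of it.

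**Figure D3:**
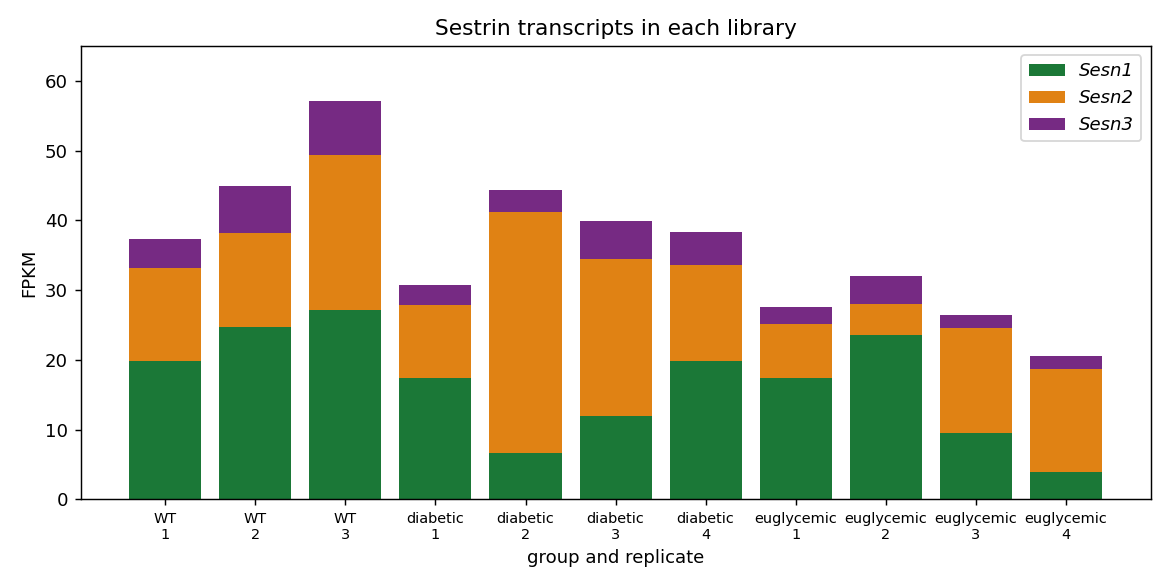
FPKM of *Sesn1*, *Sesn2* and *Sesn3* (vertical axis, stacked from 0) in each of the 11 libraries. The stacks reach 37.3 to 57.1 in WT, 30.7 to 44.3 in diabetic and 20.6 to 32.1 in the euglycemic libraries, and the *Sesn2* share is largest in diabetic replicate 2 (78.2%).

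The Rag GTPase genes kept narrower ranges, with the exception of *Rragd*. *Rragb* (RagB, chromosome X from 153139981 to 153171943, plus strand) was at 21.0, 20.7 and 16.7 FPKM in WT, at 26.7, 21.9, 26.4 and 26.5 in diabetic and at 22.6, 30.5, 21.5 and 15.7 in the euglycemic libraries. All 4 diabetic libraries were above all 3 WT libraries, replicate 2 by the least. The euglycemic libraries spanned the WT range and beyond on both sides. The log2 difference between diabetic and WT libraries was 0.37 (95% interval −0.09 to 0.83, adjusted p = 0.542 from limma), and between euglycemic and WT libraries 0.17 (adjusted p = 0.741). Under the 20 alternatives the first ran from 0.27 to 0.45 and did not pass the criteria in any.

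The DNA around the start sites of these genes is shown because *Rragb*, *Rragc* and *Lamtor1* share a motif there, the CLEAR core CACGTG. It is bound by TFE3 and TFEB, but not by them alone. These are transcription factors whose entry into the nucleus depends on folliculin and the Rag GTPases. Only the core letters were searched, so a match does not mark a site of TFE3 or TFEB. All 10 genes matched an entry of the RefSeq promoter windows of GRCm38.p6. These are 300 bases long and end 50 bases after a RefSeq start site, from which the positions below are counted. That site can differ from the gene bounds printed with each gene, which are from GENCODE. For *Lamtor1* the window ends at 101905886, before the gene bound at 101905904. *Sesn1* has 2 start sites, which makes 11 windows. Capitals mark each CACGTG and each ACGTG, the hypoxia element, read on both strands, and each CACGTG also holds an ACGTG.

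Rragb (chrX:153139708-153140007, plus strand): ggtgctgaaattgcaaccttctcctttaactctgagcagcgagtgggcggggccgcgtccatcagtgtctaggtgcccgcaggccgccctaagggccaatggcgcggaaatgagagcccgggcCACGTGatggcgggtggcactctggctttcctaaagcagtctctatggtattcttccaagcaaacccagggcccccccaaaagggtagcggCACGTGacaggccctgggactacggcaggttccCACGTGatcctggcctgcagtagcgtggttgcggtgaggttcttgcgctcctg
Rragc (chr4:123917183-123917482, plus strand): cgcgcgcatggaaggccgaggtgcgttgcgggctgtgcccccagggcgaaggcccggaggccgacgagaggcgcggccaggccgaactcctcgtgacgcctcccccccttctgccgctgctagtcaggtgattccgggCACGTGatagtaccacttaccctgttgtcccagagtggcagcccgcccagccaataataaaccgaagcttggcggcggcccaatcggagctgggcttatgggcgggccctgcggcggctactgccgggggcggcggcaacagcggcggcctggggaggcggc
Lamtor1 (chr7:101905587-101905886, plus strand): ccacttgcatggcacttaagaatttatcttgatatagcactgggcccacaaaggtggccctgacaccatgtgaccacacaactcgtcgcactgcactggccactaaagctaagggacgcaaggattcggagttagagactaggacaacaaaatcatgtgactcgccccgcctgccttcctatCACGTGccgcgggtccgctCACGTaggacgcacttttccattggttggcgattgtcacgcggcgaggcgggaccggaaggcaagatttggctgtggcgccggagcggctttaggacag
Ddit4 (chr10:59951721-59952020, minus strand): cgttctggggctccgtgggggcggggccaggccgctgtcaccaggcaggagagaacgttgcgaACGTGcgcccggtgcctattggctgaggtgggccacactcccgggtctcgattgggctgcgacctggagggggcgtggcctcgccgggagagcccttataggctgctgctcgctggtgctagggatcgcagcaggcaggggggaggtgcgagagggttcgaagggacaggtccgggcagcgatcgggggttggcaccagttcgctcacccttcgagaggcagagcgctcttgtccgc

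The CLEAR core occurred 3 times in the *Rragb* window, at −127, −36 and −3 from the start, once in that of *Rragc* (−112) and once in that of *Lamtor1* (−68). Of all 32851 promoter windows of the table, 7.15% held it. The hypoxia element alone was found in the *Ddit4* window (−187) and once more in that of *Lamtor1* (−49), and it was in 19.6% of all windows. AGAACA, a motif of the glucocorticoid receptor, was in the window of *Rraga* (−179) and in 19.0% of all windows, and the ATF4 element TGATGNAAN was in 0 of the 11 and in 3.95% of all windows. These are matches of letters in a short window, and binding was not measured.

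*Rraga* (RagA, chromosome 4 from 86575668 to 86577285, plus strand) was the most abundant Rag transcript in every library, at 58.1 to 76.6 FPKM in WT, 48.1 to 78.8 in diabetic and 40.6 to 90.9 in the euglycemic libraries. The groups overlapped, and the log2 differences from WT were −0.09 (95% interval −0.70 to 0.52) and 0.05 (−0.56 to 0.66). Its ratio to *Rragb*, which encodes the alternative partner, was 2.80 to 4.57 in WT, 2.17 to 2.99 in diabetic and 2.58 to 4.03 in the euglycemic libraries.

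*Rragc* (RagC, chromosome 4 from 123917446 to 123936997, plus strand) had the smallest ratio of highest to lowest level over the 11 libraries, at 21.5 to 33.5 FPKM in WT, 22.2 to 27.3 in diabetic and 22.4 to 32.3 in the euglycemic libraries. The log2 differences from WT were −0.03 (95% interval −0.48 to 0.42) and 0.11 (−0.34 to 0.55), and both intervals included 0. The first became 0.05 after rescaling to TPM. Of its exon bases, 7.9% overlap *4930535I16Rik* on the opposite strand, and the counting is not stated to use strand. *Rragd* (RagD, chromosome 4 from 32983037 to 33022180, plus strand) was at 10.3, 11.4 and 4.57 FPKM in WT, at 11.3, 11.9, 7.12 and 4.34 in diabetic and at 9.42, 11.1, 11.2 and 2.58 in the euglycemic libraries. One library in each group, WT replicate 3, diabetic replicate 4 and euglycemic replicate 4, was below 5 FPKM, and the group means differed by little (8.75 ± 3.66, 8.66 ± 3.57 and 8.56 ± 4.07 FPKM). The ratio of *Rragc* to *Rragd* was 1.97 to 4.70 in the WT libraries, 1.90 to 6.30 in the diabetic and 2.02 to 9.89 in the euglycemic libraries.

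*Lamtor1* (chromosome 7 from 101905904 to 101926675, plus strand) encodes the lipid-anchored subunit that fixes Ragulator to the lysosome. It was at 65.7, 34.4 and 40.4 FPKM in WT, at 26.7, 26.3, 45.1 and 50.1 in diabetic and at 52.3, 50.5, 55.3 and 30.6 in the euglycemic libraries. Diabetic replicates 1 and 2 were the lowest of all, and WT replicate 1 the highest. Differences from WT were −0.33 (95% interval −0.99 to 0.32, adjusted p = 0.731 from limma) and 0.03 (−0.63 to 0.69, adjusted p = 0.975), the second becoming −0.01 after rescaling to TPM. Without WT replicate 1 the first was −0.07 and the second 0.30, and with library weights they were −0.04 and 0.42, none past the criteria. Diabetic and euglycemic libraries differed by −0.36 (adjusted p = 0.473). Of its exon bases 18.7% overlap *Lrrc51* on the opposite strand, and 25.6% of its 50-base stretches occur in another gene, so part of this level may belong to the neighbour.

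*Flcn* (chromosome 11 from 59791408 to 59810016, minus strand), a tumour suppressor gene, was at 16.8, 11.6 and 15.9 FPKM in WT, at 12.2, 15.8, 18.02 and 16.5 in diabetic and at 12.2, 10.5, 12.2 and 15.9 in the euglycemic libraries. The 3 groups overlapped. The differences from WT were 0.08 (95% interval −0.36 to 0.52) and −0.20 (−0.64 to 0.24), and diabetic and euglycemic libraries differed by 0.28 (−0.13 to 0.69, adjusted p = 0.407 from limma).

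*Ddit4* (chromosome 10 from 59949669 to 59951834, minus strand) was low in these cells and was the only one of the 10 genes under 1 FPKM in any library. It was at 0.389, 4.995 and 3.42 FPKM in WT, at 0.551, 0.971, 2.104 and 1.34 in diabetic and at 1.39, 0.440, 0.474 and 1.998 in the euglycemic libraries. By the inferred depth and the length of its transcript this is about 9, 104 and 81 fragments in WT, 10, 17, 51 and 29 in diabetic, and 41, 11, 13 and 33 in the euglycemic libraries. The WT group held both the lowest library and the 2 highest. Log2 differences from WT were −0.62 (adjusted p = 0.638 from limma) in diabetic and −0.75 (adjusted p = 0.462) in the euglycemic libraries. These values moved with each WT library. Without WT replicate 1 they were −1.25 (adjusted p = 0.198) and −1.38 (adjusted p = 0.0483 from limma), and the second passed the criteria. Without WT replicate 2 they shrank to −0.19 (adjusted p = 0.923 from limma) and −0.33 (adjusted p = 0.904), and without WT replicate 3 they were −0.41 and −0.55. The euglycemic difference passed likewise with library weights (−1.51, adjusted p = 0.0048 from limma) and without WT replicate 1 and euglycemic replicate 4 (−1.58, adjusted p = 0.0189). WT replicate 1 was also the WT library with the lowest sum of 8 immediate early genes, which respond to handling of the tissue, at 1192 FPKM against 3333 and 2793 in WT replicates 2 and 3. The sum was 946 to 1543 in diabetic libraries and 5030, 1947, 940 and 980 in euglycemic replicates 1 to 4. Its part in the *Ddit4* values was not tested.

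Around these genes, 63 others of the pathway and of the programmes known to act on *Sesn2*, *Sesn1* and *Ddit4* were taken in 10 lists. Of these, 53 were expressed well enough to be tested. With limma, 0 passed the criteria in any of the 4 comparisons. With library weights 3, 11, 9 and 5 of them passed in diabetic against WT, euglycemic against WT, diabetic against euglycemic and both mutant groups against WT, where 4.9%, 20.3%, 10.8% and 9.92% of all genes passed. Without WT replicate 1 the counts were 0, 3, 4 and 0, beside 0.32%, 4.76%, 3.36% and 1.28% of all genes. Without WT replicate 1 and euglycemic replicate 4 they were 0, 5, 6 and 0, beside 1.15%, 10.6%, 8.42% and 3.26%. Without euglycemic replicate 4 alone they were 1, 0, 0 and 0, beside 1.87%, 0.542%, 0.0356% and 1.57%. The passes of single list genes under these alternatives stand against those shares. An unadjusted p of at most 0.05 was reached by 5 higher and 3 lower genes in diabetic against WT (15.1% of the 53), 3 and 4 in euglycemic against WT (13.2%), 5 and 5 in diabetic against euglycemic (18.9%) and 3 and 2 in both mutant groups against WT (9.43%), near the shares over all genes given above.

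The partners of *Lamtor1* in Ragulator are described first because, of the 10 lists, theirs had the largest share of such genes in diabetic against euglycemic libraries. Of the 4 tested, *Lamtor2*, *Lamtor3*, *Lamtor4* and *Lamtor5*, 4 had a negative log2 difference between diabetic and euglycemic libraries, 3 of them at an unadjusted p no higher than 0.05, which 20.6% of all genes reached. The median log2 difference was −0.673 beside 0.009 over all genes. *Lamtor2* was at 17.2 ± 5.29 FPKM (SD, n = 3) in WT, 15.9 ± 2.70 (n = 4) in diabetic and 27.6 ± 3.001 (n = 4) in the euglycemic libraries. Its difference between diabetic and euglycemic libraries was −0.77 (adjusted p = 0.123 from limma), with −0.58 (adjusted p = 0.16) for *Lamtor4* and −0.81 (adjusted p = 0.145) for *Lamtor5*, which was chosen after its values were seen. All 4 kept their sign under both rescalings. *Lamtor2*, *Lamtor4* and *Lamtor5* passed the criteria with library weights, and *Lamtor2* and *Lamtor5* also without WT replicate 1. That library is outside this comparison and enters only the shared estimate of the spread. Against WT, *Lamtor2* differed by 0.69 in euglycemic (adjusted p = 0.193) and by −0.08 in diabetic libraries (adjusted p = 0.924). The euglycemic difference also passed with library weights and without WT replicate 1.

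Among the partners and effectors of folliculin, the 4 genes tested had a positive log2 difference between diabetic and euglycemic libraries. *Fnip1*, whose product binds folliculin and which was named after its values were seen, was at 6.56 ± 1.78 FPKM in WT, 8.80 ± 1.65 in diabetic and 4.88 ± 0.673 in the euglycemic libraries (difference between the mutant groups 0.73, adjusted p = 0.125 from limma). It passed the criteria under the same alternatives as *Lamtor2* and *Lamtor5*. The CLEAR-binding factors were low: *Tfe3* was at 1.90 ± 0.471, 2.75 ± 0.368 and 1.83 ± 0.789 FPKM and *Tfeb* at 0.594 ± 0.195, 0.955 ± 0.287 and 0.695 ± 0.302. Their differences between diabetic and WT libraries were 0.37 (adjusted p = 0.577) and 0.29 (adjusted p = 0.635).

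GATOR1 turns the Rag GTPases off, and KICSTOR holds it at the lysosome. In this list *Kptn* was at 2.22 ± 0.258 FPKM in WT, 1.22 ± 0.359 in diabetic and 1.61 ± 0.738 in the euglycemic libraries (diabetic against WT −0.55, adjusted p = 0.36 from limma). *Nprl2* differed by −0.05 and 0.37 from WT. In GATOR2, the complex that sestrins bind, *Wdr59* was at 1.51 ± 0.104, 2.70 ± 0.375 and 1.59 ± 0.231 FPKM, with a difference of 0.56 between diabetic and WT libraries (adjusted p = 0.188) and of 0.51 between diabetic and euglycemic libraries (adjusted p = 0.136). *Mios* differed by −0.18 and −0.03 from WT. Of the other amino acid sensors, the S-adenosylmethionine sensor gene *Bmt2* (SAMTOR) differed by −0.30 and −0.64 from WT and the arginine sensor gene *Castor1* by −0.37 and −0.21, none past the criteria. The related *Castor2*, named after its values were seen, was at 15.3 ± 5.55, 14.9 ± 1.59 and 9.55 ± 1.89 FPKM. Its euglycemic difference from WT (−0.58, adjusted p = 0.309 from limma) passed the criteria with library weights and without WT replicate 1. In the TSC and Rheb list, on which REDD1 acts, *Tbc1d7*, the third subunit of the TSC complex, was at 15.7 ± 4.81, 9.69 ± 2.39 and 16.04 ± 3.05 FPKM (diabetic against WT −0.63, adjusted p = 0.301). Its difference between diabetic and euglycemic libraries (−0.68, adjusted p = 0.146 from limma) passed the criteria with library weights and without WT replicate 1 and euglycemic replicate 4. *Rhebl1* differed by 0.37 and 0.49 from WT, and the second passed the criteria with library weights and without WT replicate 1 and euglycemic replicate 4.

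In the ATF4 branch, 6 of 9 genes had a positive log2 difference in diabetic against WT and 3 of 9 in euglycemic against WT. The 3 lower in diabetic libraries were *Atf4* itself (−0.17), *Ddit3* (−0.33) and *Atf5* (−0.28). They were also lower in the euglycemic libraries (−0.15, −0.31 and −0.35). *Eif2ak3*, which encodes the endoplasmic reticulum stress kinase PERK, had the smallest p of all 53 genes and was named after its values were seen. It was at 10.9 ± 2.72 FPKM in the WT, 20.4 ± 3.77 in the diabetic and 9.14 ± 2.68 in the euglycemic libraries, and every diabetic library (16.2 to 25.1) was above every other (6.39 to 12.9). Diabetic and euglycemic libraries differed by 1.09 (unadjusted p = 0.000335, adjusted p = 0.122 from limma) and diabetic and WT libraries by 0.85 (adjusted p = 0.154). The first passed the criteria with library weights and without WT replicate 1, and the second with library weights. *Eif2ak4*, which encodes the amino acid starvation kinase GCN2, was at 1.96 ± 0.324 FPKM in WT, 3.80 ± 0.445 in diabetic and 2.91 ± 0.989 in the euglycemic libraries (0.70, adjusted p = 0.162, and 0.38, adjusted p = 0.433 from limma). Its diabetic difference passed the criteria with library weights and without euglycemic replicate 4. *Chac1*, a target of ATF4, was at 74.2 ± 72.0, 87.5 ± 13.9 and 68.1 ± 35.2 FPKM. Among p53 targets, to which *Sesn1* and *Sesn2* belong, *Cdkn1a* (p21) was at 40.3 ± 8.18, 58.7 ± 8.63 and 71.9 ± 18.1 FPKM (0.54, adjusted p = 0.385, and 0.81, adjusted p = 0.162). *Trp53inp1* was at 18.2 ± 5.04, 19.7 ± 6.28 and 8.79 ± 3.21 FPKM (0.08, adjusted p = 0.959, and −1.01, adjusted p = 0.223). The euglycemic differences of both genes passed the criteria with library weights, and that of *Cdkn1a* also without WT replicate 1 and euglycemic replicate 4. *Bax*, a cell death gene named after its values were seen, was at 79.97 ± 15.2, 48.4 ± 14.4 and 83.4 ± 5.26 FPKM. It differed by −0.74 between diabetic and WT libraries (adjusted p = 0.206 from limma) and by −0.82 between the mutant groups (adjusted p = 0.123). The second passed the criteria under the same alternatives as *Tbc1d7*.

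For *Ddit4*, hypoxia and glucocorticoids were read in their targets, and energy stress was not. Among hypoxia targets, 2 of 6 had a positive log2 difference in diabetic and 1 of 6 in euglycemic against WT. *P4ha1*, a collagen hydroxylase subunit, was at 11.9 ± 1.49 FPKM in WT, 19.2 ± 0.771 in diabetic and 15.9 ± 2.12 in the euglycemic libraries (0.65, adjusted p = 0.11, and 0.39, adjusted p = 0.333 from limma). The diabetic difference passed the criteria with library weights. The oxygen sensor gene *Egln1* differed by −0.24 and −0.41. Among glucocorticoid targets, 4 of 5 had a negative log2 difference from WT in each mutant group. *Tsc22d3* (GILZ) was at 19.6 ± 8.02, 12.3 ± 4.27 and 11.1 ± 2.36 FPKM (−0.62, adjusted p = 0.448, and −0.71, adjusted p = 0.31). *Per1*, also a clock gene, was at 4.61 ± 3.42, 3.20 ± 1.04 and 1.43 ± 0.992 FPKM (−0.21, adjusted p = 0.901, and −1.06, adjusted p = 0.32). Of these, *Per1* passed the criteria in euglycemic against WT with library weights and without WT replicate 1, where 20.3% and 4.76% of all genes passed.

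**Figure D4:**
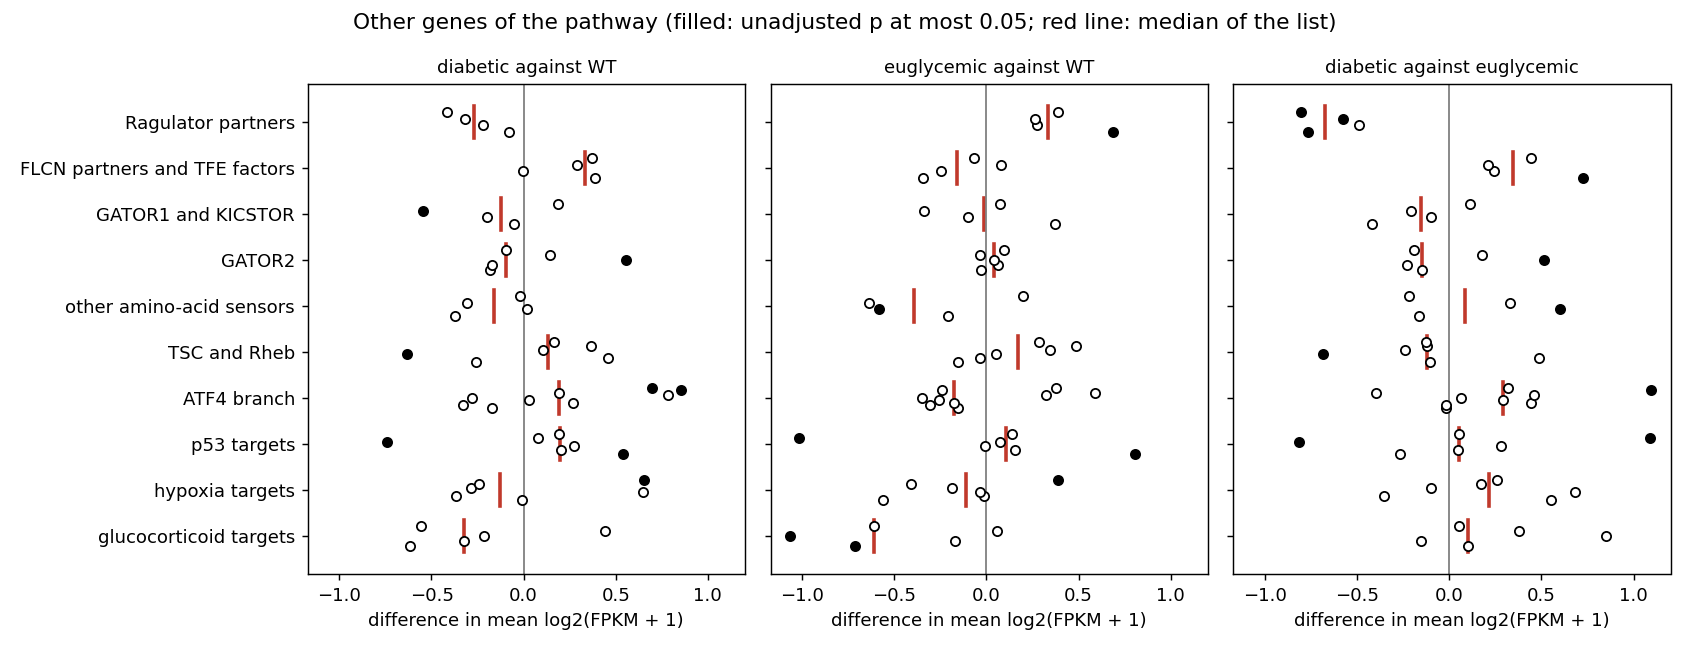
Difference in mean log2(FPKM + 1) (horizontal axis) of the 53 other pathway genes tested, by list (vertical axis), for 3 comparisons, with filled points at an unadjusted p of at most 0.05 and a red line at the median of each list. In diabetic against euglycemic libraries the 4 Ragulator partners lie left of 0 (median −0.673), and 0 of the 53 genes passed the criteria in any panel.

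The genes whose levels followed each of the 10 most closely over the 11 libraries, by Pearson correlation of log2(FPKM + 1), are given as a description. The libraries differ in group, depth and marker levels. Each gene was picked as the highest among the 11251 tested, and such a search over 11 libraries gives high values by chance as well. No link between the genes was tested. *Sesn1* was followed by *Atg12* (r = 0.985), an autophagy conjugation gene, and by *4930579G24Rik* (0.953). *Sesn2* was followed by *Fam83g* (0.914) and *Prkag2* (0.898), which encodes an AMPK subunit. *Sesn3* was followed by *Slc16a10* (0.908), an aromatic amino acid transporter gene, and *Smim1* (0.888). For the Rag genes these were *Ppp2r1a* (0.945) and *Cpq* (0.934) with *Rraga*, *Cd200* (0.954) and *Prss23* (0.926) with *Rragb*, *Stxbp3-ps* (0.915) with *Rragc*, and *Gm47512* (0.912) and *4833445I07Rik* (0.879) with *Rragd*. *Lamtor1* was followed by *Tmem159* (0.986) and *Npc2* (0.968), a lysosomal cholesterol carrier gene. *Flcn* was followed by *Bnip2* (0.9) and *Tagap1* (0.885), and *Ddit4* by *Mlxipl* (0.926), which encodes the glucose-responsive factor ChREBP, and *Acads* (0.897). Within the 10, the closest pairs were *Rraga* with *Lamtor1* (r = 0.81), *Rragc* with *Lamtor1* (0.74), *Sesn2* with *Flcn* (0.71) and *Sesn1* with *Sesn3* (0.70).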

How the data were processed

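RNA-seq of 11 libraries (3 WT, 4 diabetic, 4 euglycemic) was analysed from 1 table. The authors deposited FPKM per gene and library, without fragment totals. The study's methods name Tophat and Cufflinks, whereas the submitters' processing notes name HISAT2 2.0.4, StringTie 1.3.0 and edgeR with mm10, so which of them made the table is open. No further normalization was applied. The euglycemic columns are headed KI, and they were matched to the insulin-treated samples by inference, since the WT and KO columns match the other titles. Of 34745 entries, 478 had no symbol and 17 were left out as repeats of a symbol. Depth was inferred from single-exon genes of at least 500 bases, whose low values (92.4 to 97.3% of them whole multiples of 1 fragment, tolerance 0.02) give about 9510000 to 16660000 fragments. At that depth 1 fragment on 1 kilobase is 0.06 to 0.105 FPKM. Neither strand nor pooling is given in the sources used here.

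limma 3.58.1 in R 4.3.3 (lmFit, eBayes with a trend) was fitted to log2(FPKM + 1), pseudocount 1, over 11251 genes with at least 1 FPKM in at least 3 libraries, with all 11 libraries in one fit. A log2 difference on this scale understates the change of low genes. The fit was tested on simulated data. *Rptor*, below that minimum, was compared with exact permutation tests, two-sided (scipy 1.17.1). Figures and sums were made with Python 3.11.15. Gene positions are from GENCODE vM21. The members and lists were chosen with earlier results of these data known. Named genes are all members, in each list the 2 with the largest difference in both mutant groups against WT, any list gene called, the 2 genes most like each member, and *Rptor*. Alternatives were no filter, a pseudocount of 0.1, rescaling by the median of ratios or to TPM, library weights, no trend, the replicate number as a block, only the groups compared, and each library left out. The fit without both WT replicate 1 and euglycemic replicate 4 was added after seeing the data. Protein sequences were not used here. Of the genes most like a member, 1 is not reported here.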

Additional observations from a re-analysis of the deposited data

Results flagged for a closer look

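*Rragb* in diabetic libraries had 1 library far from the others of its group. Replicate 2 was at 21.9 FPKM and the other 3 at 26.4 to 26.7, and the gap to the nearest was 0.937 of the whole range of the group. It was the only one of 20 groups (10 genes in the 2 mutant groups, 4 libraries each), and chance marks about 1 group in 20 in this way.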

How the results depend on the processing

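In the 4 comparisons, in the order diabetic against WT, euglycemic against WT, diabetic against euglycemic and both mutant groups against WT, the number of the 10 genes past the criteria was 0 under the alternatives tried, except for 2 in euglycemic against WT and 2 in both mutant groups against WT with library weights, and 0 to 2 and 0 to 1 in those comparisons when libraries were left out. These were *Sesn3* and *Ddit4* (of which only *Ddit4* in both mutant groups against WT without WT replicate 1 and euglycemic replicate 4), and the cause was not tested. Over all genes tested the counts were 109, 62, 1 and 118. They were 22, 13, 0 and 23 with no filter, 551, 2287, 1212 and 1116 with library weights, and 26 to 210, 12 to 1198, 0 to 947 and 30 to 367 when libraries were left out. In diabetic against euglycemic the count was 0 with a pseudocount of 0.1, 0 after rescaling to TPM, 0 after the median of ratios and 6 in the fit of only the groups compared, which gave 17 in euglycemic against WT and is no other fit for both mutant groups against WT. Rescaling to TPM gave 62 higher and 35 lower genes in diabetic against WT, in place of 53 and 56, and moved the median of all genes in diabetic against euglycemic from 0.009 to 0.121.

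The replicate numbers did not pair the libraries: same-numbered libraries had a mean correlation of deviations of −0.132 (10 pairs) and others of 0.0433 (30 pairs). With the replicate number as a block the counts over all genes were 45, 20, 0 and 53, and 0 of the 10 genes passed. Under the block *Rragd* was at 0.3229, 0.2416 and 0.2823 in diabetic, euglycemic and both groups against WT, in place of −0.0164, −0.0977 and −0.0571. In both groups against WT, *Rraga* was at 0.0654 in place of −0.0195 and *Mios* at 0.0386 in place of −0.105.

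Other signs turned as follows. After rescaling to TPM, against WT, diabetic *Rragc* was at 0.0469 and *Rragd* at 0.0583, and euglycemic *Lamtor1* at −0.0121. With library weights, diabetic *Rraga* was at 0.0422 and *Rragc* at 0.1469, euglycemic *Rragd* at 0.2524, diabetic against euglycemic *Sesn1* at −0.2742 and *Rragd* at −0.2758, and in both groups against WT *Rraga* was at 0.185, *Rragd* at 0.1145, *Lamtor1* at 0.1883, *Flcn* at 0.0211 and *Lamtor4* at 0.1774. When libraries were left out, the log2 differences of diabetic against WT ran from −0.0935 to 0.4567 for *Sesn2*, −0.2057 to 0.0507 for *Rraga*, −0.1433 to 0.1666 for *Rragc*, −0.3787 to 0.2401 for *Rragd* and −0.0718 to 0.1873 for *Flcn*. Those of euglycemic against WT ran from −0.0689 to 0.3526 for *Rraga*, −0.0058 to 0.3363 for *Rragc*, −0.46 to 0.4751 for *Rragd* and −0.1609 to 0.488 for *Lamtor1*. Those of diabetic against euglycemic ran from −0.2632 to 0.5091 for *Sesn1*, −0.4008 to 0.0018 for *Rraga*, −0.3408 to 0.3378 for *Rragd* and −0.0357 to 0.3372 for *Ddit4*. Those of both mutant groups against WT ran from −0.1373 to 0.1522 for *Rraga*, −0.0745 to 0.2515 for *Rragc*, −0.4193 to 0.3046 for *Rragd*, −0.3426 to 0.2105 for *Lamtor1*, −0.2126 to 0.0365 for *Flcn*, −0.2058 to 0.2035 for *Lamtor4*, −0.1657 to 0.0059 for *Mios* and −0.3089 to 1.3703 for *Chac1*, where all libraries gave 0.555. Over all alternatives, other list values in the text whose sign turned were, in diabetic against WT, *Lamtor2* (to 0.148), *Trp53inp1* (to −0.086), *Per1* (to 0.237), *Nprl2* (to 0.183) and *Mios* (to 0.042), and in euglycemic against WT *Mios* (to 0.114). The signs of *Sesn3*, *Rragb* and, against WT, of *Sesn1* and *Ddit4* held under all alternatives tried. Depth limits *Ddit4* most, with about 9 to 104 fragments a library.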
